A study of Homo sapiens with 40 samples.

Results

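UGT2A3, UGT2B4, UGT2B7, UGT2B10, UGT2B11, UGT2B15 and UGT2B17 are 7 genes of the UGT2 family of UDP-glucuronosyltransferases, and they were followed by gene name among the 56568 gene names measured by RNA sequencing in HepaRG cells. HepaRG is a hepatic line of human origin, and after differentiation its cultures hold cells that resemble hepatocytes beside others that resemble biliary cells. The 40 libraries came from differentiated cells kept in test medium with 2% serum and 1% DMSO, and the exposure ran from day 8 to day 14. There were 8 groups of 5 libraries. The control received the solvent only. PCB 126, a dioxin-like polychlorinated biphenyl that activates the aryl hydrocarbon receptor, was used in 3 groups, of which the lowest had 100 pM, the middle 10 nM and the highest 1 µM. The herbicide glyphosate was given at 10 µg/L, at 1 mg/L or at 0.1 g/L. Roundup, a glyphosate-based formulation, was given at 10 µg/L. Every group was 1 cell line, so the 5 libraries of a group are cultures or technical samples and not donors, and the p-values measure the spread between them.

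UDP-glucuronosyltransferases sit in the membrane of the endoplasmic reticulum and join glucuronic acid from UDP-glucuronic acid to small molecules, which makes them water-soluble enough for excretion in bile or urine. In the UGT1A family the enzymes share the exons for the sugar-binding end, whereas each UGT2B enzyme and UGT2A3 has a gene of its own. The liver uses UGT2 enzymes to conjugate steroid hormones, bile acids and many drugs. The aryl hydrocarbon receptor is best known for inducing cytochromes P450 of family 1 and members of UGT1A.

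The deposited annotation (GRCh38, Ensembl release 89) places the 7 genes on chromosome 4 within 0.959 Mb, from position 68537184 to 69495908. The main transcript of each has 6 exons. UGT2B17, UGT2B15, UGT2A3, UGT2B11 and UGT2B4 lie on the minus strand, and UGT2B10 and UGT2B7 on the plus strand. The members are close copies, which matters for reads of 75 bases. Of the stretches of 75 bases in the main UGT2B15 transcript (ENST00000338206), 17.9% occur identically in UGT2B17, and 15.3% of those of UGT2B17 (ENST00000317746) occur in UGT2B15. For UGT2B11, 18.3% occur in another UGT2 gene or pseudogene, for UGT2B10 11.9%, for UGT2B7 2.26% and for UGT2B4 0.0494%, whereas UGT2A3 shared none with the other UGT2 transcripts of GENCODE 44.

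Promoters were looked at because 6 of the members varied together between libraries. RefSeq sequence (GRCh38.p14) of 300 bases around the gene start was held for 5 of the 7 members, UGT2B4 and UGT2B17 being the others. The last 70 bases before the start are printed 5′ to 3′ on the strand of the gene, with the letters TTAACT in capitals, to show an element that all 5 share. They cover chr4:68670653-68670722 (minus strand) for UGT2B15, chr4:68815924-68815993 (plus) for UGT2B10, chr4:68951805-68951874 (minus) for UGT2A3, chr4:69096404-69096473 (plus) for UGT2B7 and chr4:69214749-69214818 (minus) for UGT2B11.
UGT2B15: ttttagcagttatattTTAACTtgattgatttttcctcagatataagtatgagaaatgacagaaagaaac
UGT2B10: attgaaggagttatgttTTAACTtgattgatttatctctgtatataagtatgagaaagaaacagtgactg
UGT2B11: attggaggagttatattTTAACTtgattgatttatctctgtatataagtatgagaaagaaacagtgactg
UGT2B7: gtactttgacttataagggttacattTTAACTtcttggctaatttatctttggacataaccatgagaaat
UGT2A3: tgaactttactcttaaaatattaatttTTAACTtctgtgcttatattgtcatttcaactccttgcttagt
The element began 54 bases before the start in UGT2B15, 53 in UGT2B10 and UGT2B11, 44 in UGT2B7 and 43 in UGT2A3. It was picked after the sequences were seen, and TTAACT or its reverse complement AGTTAA stands in 8.67% of all 35116 promoters of the table. GCGTG, the core letters of the element that the aryl hydrocarbon receptor binds, was in none of the 5 on either strand, and it is in 36.5% of all promoters. GTTAAT and TATAAA were searched as well. GTTAAT was in none of the 5 (6.88% of all promoters), and TATAAA was in UGT2B10 and UGT2B11 only (11.5%). The promoters of UGT2B10 and UGT2B11 were 90% identical over the 300 bases. That of UGT2B15 was 68% and 69.7% identical to them, and that of UGT2B7 61.7% to 62.7% to the other UGT2B promoters. The promoter of UGT2A3 was 48.3% to 50.7% identical to the other 4. Among such close copies a shared stretch does not count as separate occurrences. A match or its absence describes only these letters in this window.

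Levels are given in FPKM, fragments normalised to the length of the transcript and to the depth of the library, summed over the transcripts of a gene name. The scale is per length, so levels of different genes may be compared. In control cells UGT2B15, which conjugates androgens, was the highest member, with 166, 226, 200, 241 and 170 FPKM in replicates 1 to 5. UGT2B4, which acts on bile acids, was next, with 149, 155, 143, 195 and 104 FPKM. These 2 genes made up 51.7% ± 4.37 and 38.1% ± 2.81 (SD, n = 5) of the family's summed FPKM of 391 ± 79.8. UGT2A3, another bile acid conjugating enzyme, stood at 14.5 ± 2.92 FPKM, and UGT2B7, the main enzyme for morphine and many other drugs, at 12.1 ± 5.77. UGT2B11, for which few substrates are known, stood at 6.75 ± 2.12 FPKM, and UGT2B10, which conjugates tertiary amines such as nicotine, at 3.53 ± 1.63.

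The order was steadier than the levels. UGT2B4 was above UGT2A3 in 40 of 40 libraries, UGT2B7 above UGT2B11 in 39, and UGT2B11 above UGT2B10 in 38. UGT2A3 and UGT2B7 could not be ordered: UGT2A3 was the higher in 17 of 40 libraries and their ranges overlapped in every group. UGT2B15 was above UGT2B4 in 25 of the 30 libraries of the control, 100 pM and herbicide groups and in 1 of the 10 libraries of the higher PCB 126 concentrations. The remaining UGT2 genes, UGT2A1, UGT2A2 and UGT2B28, summed to at most 0.195 FPKM in any library and passed no filter.

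**Figure D1:**
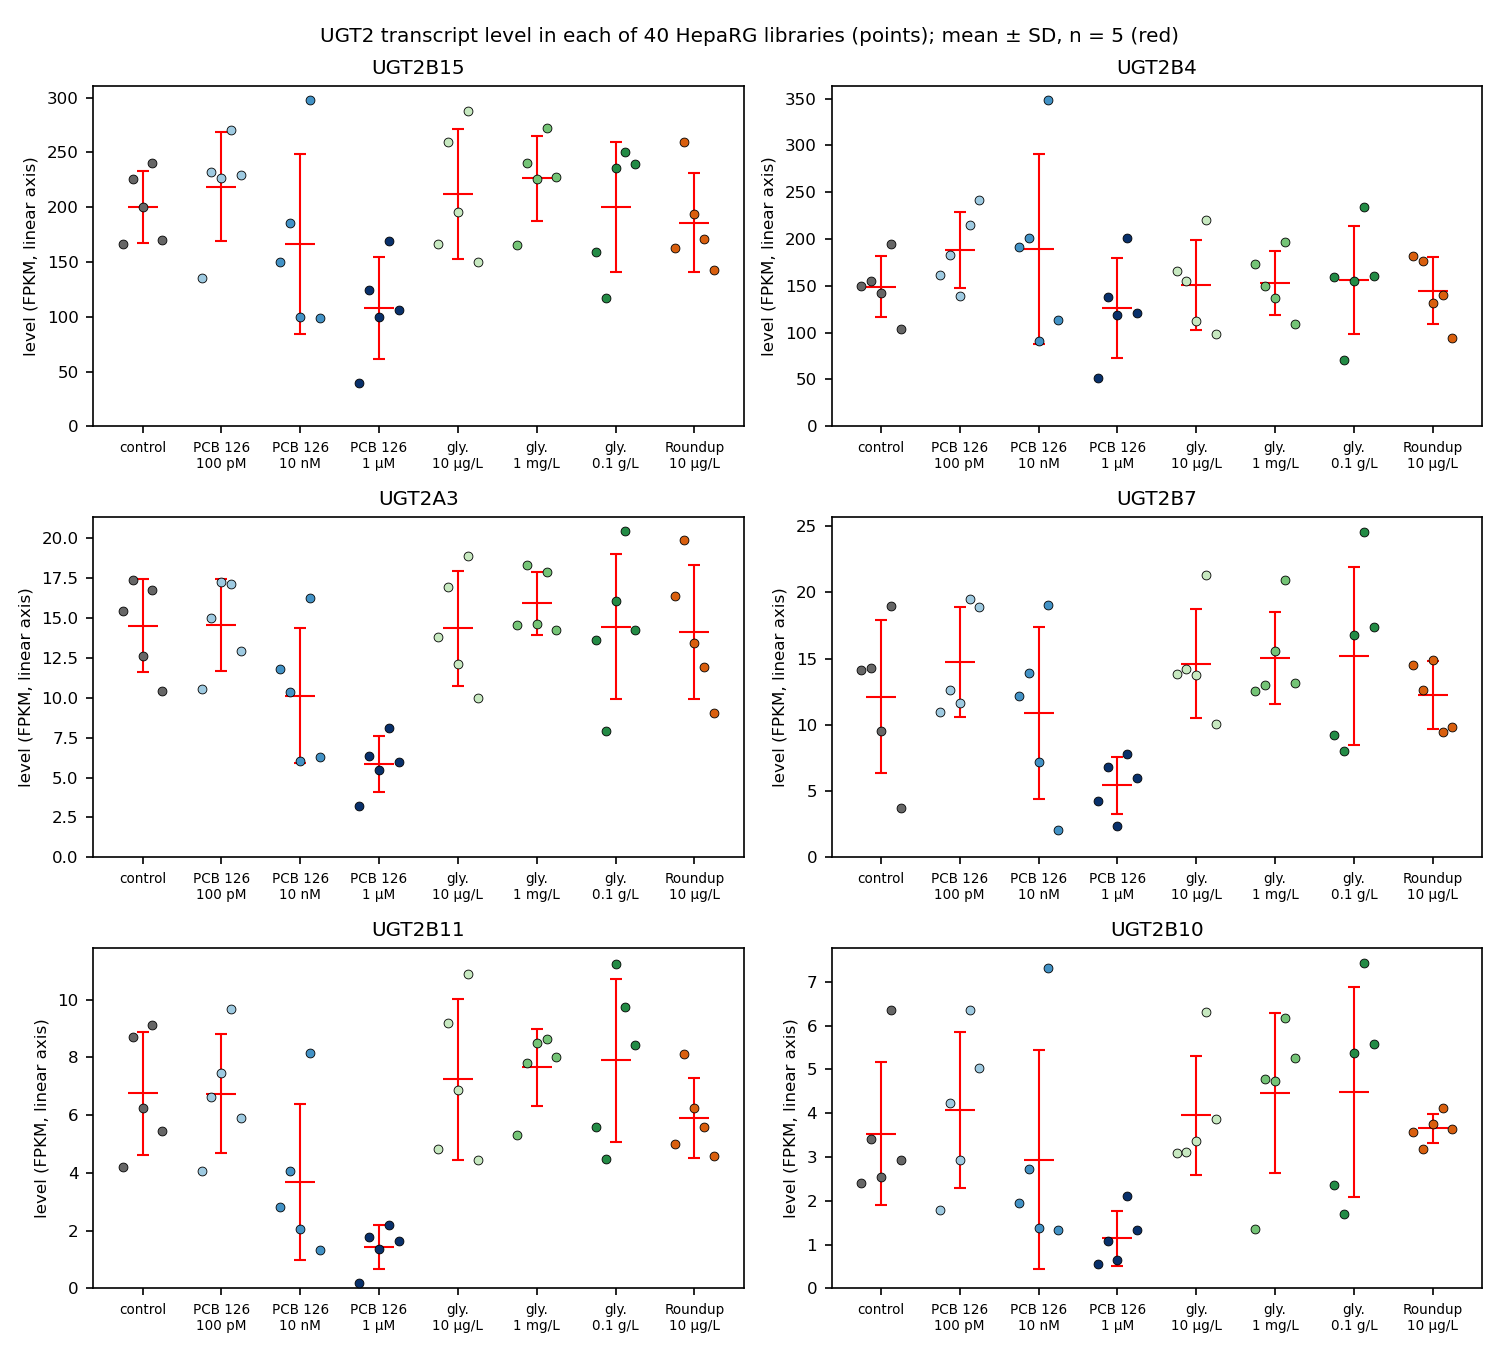
FPKM (linear axes from 0) of 6 UGT2 genes in each of the 40 libraries, 5 per group, with the mean and SD in red; gly. stands for glyphosate. At 1 µM PCB 126 every value of UGT2A3, UGT2B11 and UGT2B10 lies below the lowest control value (10.4, 4.19 and 2.41 FPKM), whereas the herbicide groups overlap with the control in every panel.

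The labels were checked on targets of the aryl hydrocarbon receptor. CYP1A1, the receptor's most cited target, stood between 0 and 7.69 FPKM in the control and between 85.2 and 389 at 1 µM, and 4 of 4 such targets passed the test at 10 nM and at 1 µM. FPKM summed to between 255292 and 513059 per library, with 71169 to 118592 transcripts above 0. The files hold no counts, so no counting error can be given, and the number of libraries limits the precision. In 9 libraries over 30% of the reads aligned more than once: control replicate 5, 10 nM replicates 3 and 5, 1 µM replicates 1 and 5, and 4 libraries of the herbicide groups. Without these libraries the count of members called and a part of the values for PCB 126 are given as well. All 12 hepatocyte markers, from ALB to CYP3A4, were at 1 FPKM or more in every control library. Of the 8 biliary and progenitor markers only KRT19 and SOX9 were, and EPCAM was at 0 to 0.0401 FPKM.

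At 1 µM PCB 126, UGT2B11 and UGT2A3 fell and no member rose. UGT2B11 held 4.19, 8.71, 6.26, 9.14 and 5.46 FPKM in the 5 control libraries and 0.183, 1.77, 1.37, 2.19 and 1.64 at 1 µM. All treated values lay below all control values, and replicate 1 was the lowest of the 40 libraries. The fall was 3.26-fold on the log2(FPKM + 1) scale, where the difference was -1.70 ± 0.331 (SE; limma, adjusted p = 0.0043). That scale understates the change of low genes.

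UGT2A3 held 15.4, 17.4, 12.6, 16.7 and 10.4 FPKM in the control and 3.22, 6.33, 5.5, 8.12 and 6.00 at 1 µM, again without overlap. Its difference was -1.20 ± 0.270 on the log2 scale, a 2.30-fold fall (limma, adjusted p = 0.0136). Without control replicate 2 or control replicate 4 its adjusted p by limma was 0.05 and 0.0534, just short of the threshold, with differences of -1.14 and -1.15. UGT2B11 passed in each of the 22 alternatives, and its adjusted p by limma and the ordinary linear model ranged from 0.000244 to 0.0343.

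UGT2B10 also did not overlap between the groups, but it did not pass the test across all genes. It held 2.41, 3.40, 2.55, 6.36 and 2.94 FPKM in the control against 0.558, 1.07, 0.641, 2.10 and 1.33 at 1 µM, with a log2 difference of -1.07 ± 0.334 (limma, adjusted p = 0.107). UGT2B15 held 39.5, 124, 99.6, 169 and 107 FPKM at 1 µM. Its highest treated value, in replicate 4, lay just above its lowest control value of 166, and the log2 difference was -1.01 ± 0.334 (limma, adjusted p = 0.134).

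UGT2B7 held 14.2, 14.3, 9.55, 18.9 and 3.69 FPKM in the control and 4.24, 6.82, 2.40, 7.80 and 6.02 at 1 µM. The groups overlapped only through control replicate 5, and the log2 difference was -0.95 ± 0.418 (limma, adjusted p = 0.312). Without the libraries over the alignment limit, control replicate 5 among them, it was -1.27 (limma, adjusted p = 0.0329). UGT2B4 held 51.4, 138, 119, 201 and 121 FPKM at 1 µM against 104 to 195 in the control, and its groups overlapped widely. Its log2 difference was -0.34 (95% interval -1.04 to 0.36, limma, adjusted p = 0.643), and it came to 0.01 with scaling by the 75th percentile and without the libraries over the limit.

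In counts, 7 of 7 members passed the filter on variance, UGT2B17 only through 2 libraries, and 2 of the 7 passed the test at 1 µM, both lower. Of all 9755 genes tested 1.87% passed, and 1.22% passed with a lower level. At an unadjusted p under 0.05, 5 of 7 members were lower, against 11.3% of all genes. The 3 members without overlap stand beside 1.64% of all genes for which all 5 treated values lay below all 5 control values. The median difference of the members was -1.01, and that of all genes tested was -0.26. Across the 4 PCB 126 groups the F-test called UGT2A3 and UGT2B11, 2 of 7 members, and 1.39% of all genes. It called UGT2B11 alone without control replicate 1, 2 or 4, 100 pM replicate 2, 3 or 4, or 1 µM replicate 1, 2, 3 or 5. Without the libraries over the limit 3 members passed at 1 µM, where 6.34% of 8298 genes did. The differences of UGT2B10 and UGT2B15 were then -1.02 and -0.68 (limma, adjusted p = 0.175 for both).

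Exact permutation tests of single members, two-sided over all splits of 5 against 5, gave p = 0.00794 for UGT2A3, UGT2B10 and UGT2B11 at 1 µM, the smallest value the design allows. They gave exact p = 0.0159 for UGT2B15, 0.0635 for UGT2B7 and 0.421 for UGT2B4. Adjusted over the 7 contrasts of a member, the lowest exact p was 0.0556, which is also the lowest possible for a member with a single such contrast.

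At 10 nM the mean log2 level of 5 of the 6 members other than UGT2B17 lay between those of the control and 1 µM, with wide spread, whereas UGT2B4 was at 189 ± 101 FPKM against 149 ± 32.6 in the control. UGT2B11 held 2.83, 4.06, 2.06, 8.15 and 1.33 FPKM, so that 4 of 5 values were below all controls and replicate 4 was within their range. Its log2 difference was -0.85 (95% interval -1.53 to -0.17, limma, adjusted p = 0.779). UGT2A3 differed by -0.54 (-1.10 to 0.02) and UGT2B15 by -0.38 (-1.07 to 0.31), which became 0.03 with 75th-percentile scaling and without the libraries over the limit. Replicate 4 at 10 nM held the highest UGT2B4 and UGT2B15 of all 40 libraries, 349 and 298 FPKM. With limma 0 of 7 members passed at 10 nM (0.205% of all genes did), and 1 of 7 was lower at an unadjusted p under 0.05 (3.75% of all genes). Without the libraries over the limit the difference of UGT2B11 was -0.47 (limma, adjusted p = 0.884). An ordinary linear model (least squares with library size as a term) also called 0 of 7 there, and 1.17% of all genes.

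Between 1 µM and 10 nM, 0 of 7 members passed with limma (0% of all genes), while 3 of 7, UGT2A3, UGT2B10 and UGT2B11, had an unadjusted p under 0.05 (3.32% of all genes). That count ranged over the alternatives from 0, without 10 nM replicate 4 or 1 µM replicate 1, to 6 without the libraries over the limit. The 6 members other than UGT2B17 had log2 differences from -0.85 to -0.55. At 100 pM, 0 of 7 passed with limma (0% of all genes), and 0 of 7 had an unadjusted p under 0.05 (1.19% of all genes). The 6 members differed from the control by 0.00 to 0.38, with 95% bounds from -0.68 to 1.24. The ordinary linear model called 0 of 7 in both contrasts.

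**Figure D2:**
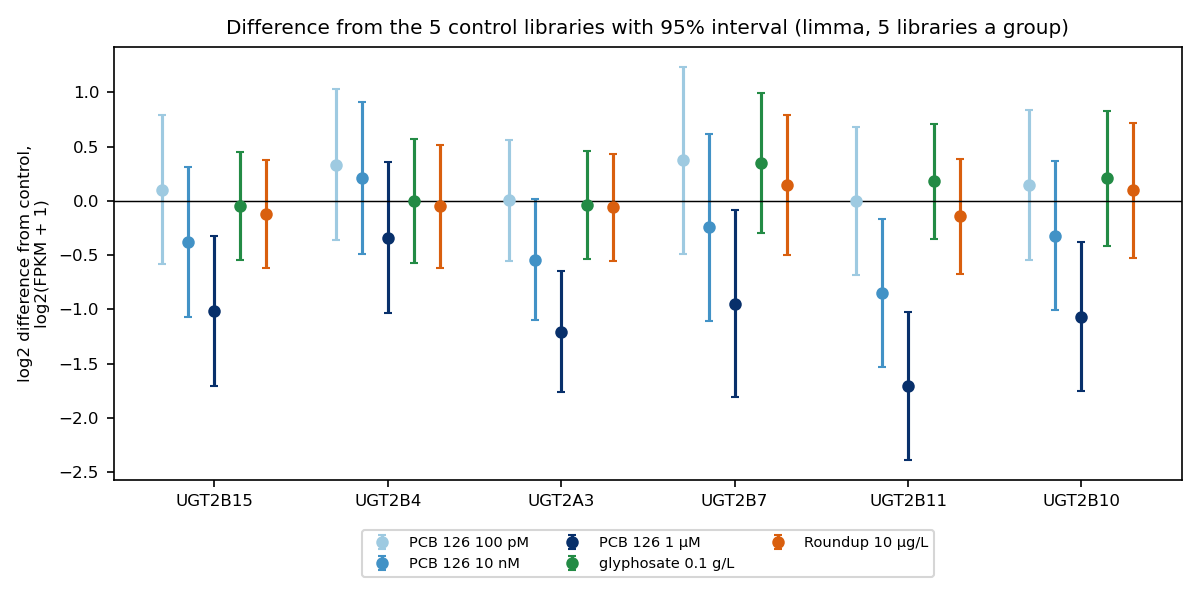
Difference of 6 UGT2 genes from the control in log2(FPKM + 1), with 95% intervals from limma, for the 3 PCB 126 concentrations, Roundup at 10 µg/L and glyphosate at 0.1 g/L. The 1 µM points run from -1.70 for UGT2B11 to -0.34 for UGT2B4, and the intervals of both herbicide treatments cross 0 for every gene.

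Relative to UGT2B4 in the same library, several members were lower at both higher PCB 126 concentrations. The log2 ratio of UGT2B15 to UGT2B4 was 0.44 ± 0.216 (SD, n = 5) in the control, 0.21 ± 0.376 at 100 pM, -0.15 ± 0.180 at 10 nM and -0.24 ± 0.0852 at 1 µM. Each of the 5 libraries at 10 nM and of the 5 at 1 µM lay below every control library. UGT2B15 was therefore above UGT2B4 in 5 of 5 control libraries and in 0 of 5 at 1 µM. The same separation held for UGT2B11, whose ratio was lower by 1.06 at 10 nM and by 1.37 at 1 µM on the log2 scale, and for UGT2A3, lower by 0.75 and 0.87. UGT2B10 was below all controls in 3 of 5 libraries at 10 nM and 4 of 5 at 1 µM, and UGT2B7 in 1 and 2. Such a separation was found for 3.58% of all genes tested at 10 nM and for 1.11% at 1 µM. The ratio was chosen after the values were seen and has no test. Without the libraries over the alignment limit the 1 µM differences were -1.40 for UGT2B11, -1.02 for UGT2A3 and -0.58 for UGT2B15.

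**Figure D3:**
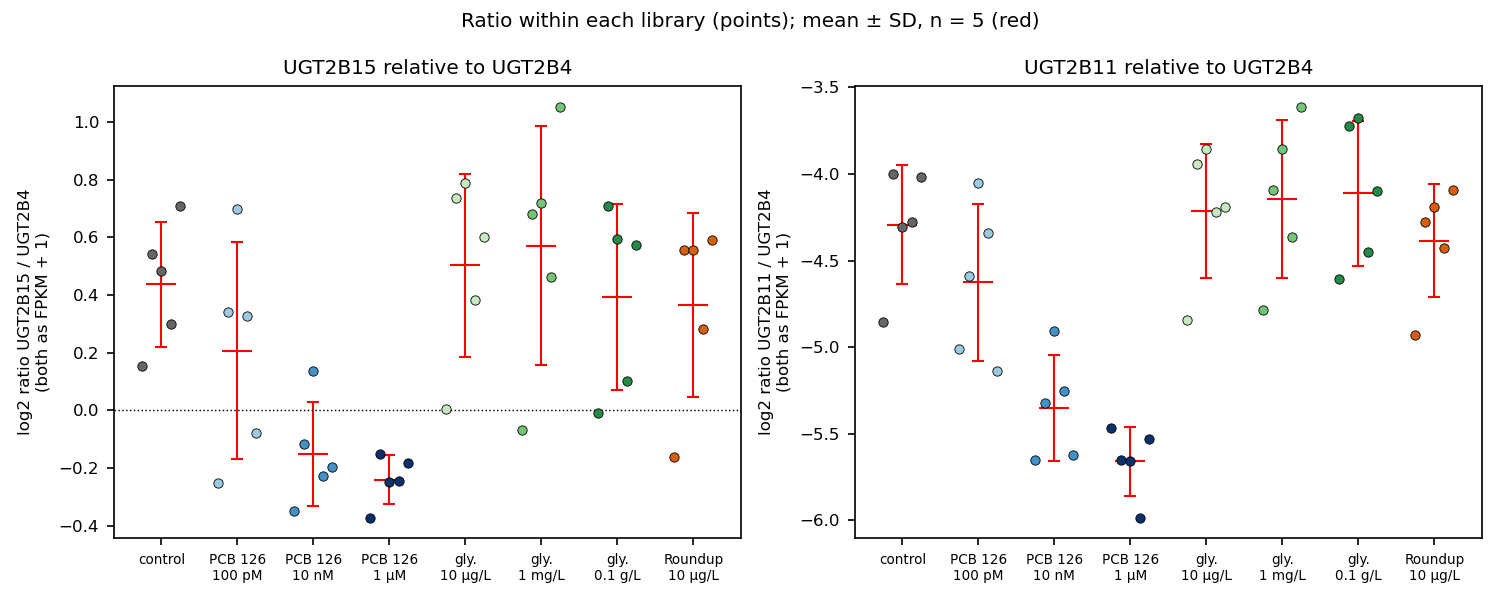
Log2 ratio of UGT2B15 (left) and UGT2B11 (right) to UGT2B4 within each library, both taken as FPKM + 1, with mean and SD in red for 5 libraries a group. UGT2B15 falls from a mean of 0.44 in the control to -0.24 at 1 µM PCB 126, below the dotted line where both genes are equal, and the 5 herbicide and control groups stay above it on average.

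Most markers of hepatocytes moved with the members, and 10 of the 12 had a log2 difference below 0 at 1 µM. Their sum was mostly ALB and SERPINA1, with control medians of 10883 and 4137 FPKM. The 12 markers together held 14800 to 23334 FPKM in the control (median 21359) and 6106 to 14778 at 1 µM (median 10005), with no overlap. Of the 12, 3 passed the test and were lower, TTR, FGB and CPS1, and the median difference was -0.96, close to the -1.01 of the UGT2 genes. The summed biliary and progenitor markers, nearly all of it KRT19, were 195 to 402 FPKM in the control and 104 to 200 at 1 µM, and 0 of the 2 tested of 8 passed. The 6 stromal markers held 38 to 82.4 FPKM in the control (median 77.5) and 48.3 to 187 at 1 µM (median 163). Of the 4 tested, COL3A1 passed and was lower, and none passed with a higher level. The means of DCN, LUM and COL1A1 were higher at 1 µM, at 10.7, 115 and 4.02 FPKM against 4.95, 50.2 and 2.01. By limma 2 of the 4 were higher at an unadjusted p under 0.05, and the median difference was 0.83. Of the stromal markers, VIM and COL1A2 were at or below 0.174 FPKM by gene name in the control. LUM, COL3A1, DCN and COL1A1 were at 1 FPKM or more in every control library. In such bulk libraries fewer hepatocyte-like cells and less RNA per cell cannot be told apart, and the part of these markers in the UGT2 result was not tested.

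Each member was also set against the summed hepatocyte markers of the same library. This shifts all members of a library alike, so the distances between members stay the same. At 1 µM the log2 ratio to the markers differed from the control by 0.00 for UGT2B15, by -0.05 for UGT2B10, by 0.07 for UGT2B7 and by -0.19 for UGT2A3, of which 4 of 5 libraries were below all controls. It differed by -0.69 for UGT2B11, which went from -11.35 ± 0.442 to -12.04 ± 0.205 (SD, n = 5), with 2 of 5 libraries below all controls. UGT2B4 went the other way, from -7.06 ± 0.177 to -6.38 ± 0.276. At 10 nM its ratio was -6.39 ± 0.209, and all 5 libraries were above all controls, as for 3.61% of all genes. These ratios were formed after the values were seen and have no test. They were taken as FPKM + 1, which understates the change of low genes such as UGT2B10 and UGT2B11. The differences of UGT2B15, UGT2B10 and UGT2B7 were smaller than the SD between control libraries, whereas those of UGT2A3 and UGT2B11, both lower, and of UGT2B4, which was higher, were larger. Without the libraries over the alignment limit the differences were -0.37 for UGT2B7, 0.22 for UGT2B15, -0.12 for UGT2B10, -0.21 for UGT2A3, -0.60 for UGT2B11 and 0.80 for UGT2B4, so that of UGT2B7 changed sign.

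UGT2B17, which conjugates testosterone, was listed at 0 in 35 of 40 libraries. It stood at 20.8 FPKM in control replicate 4, 21.8 in 100 pM replicate 2, 17.1 in glyphosate 10 µg/L replicate 3, 18.4 in glyphosate 1 mg/L replicate 5 and 0.174 in glyphosate 10 µg/L replicate 2. The 10 libraries of 10 nM and 1 µM were all at 0, as were 4 of 5 control libraries, and no fold is given. A value of 0 here does not mean that no reads fell on the gene. UGT2B17 and UGT2B15 belong to 1 assembled locus that also holds 3 transcripts without a gene name. One of them (chr4:68550677-68567938) lies inside UGT2B17, and it was above 1 FPKM in 5 libraries, at 25.3 to 56.9 FPKM. No library had both it and UGT2B17 above 1 FPKM. The other 2 span both genes (chr4:68537153-68670683 and chr4:68537362-68670693) and together were above 1 FPKM in 37 of 40 libraries, including all 31 without either of the former.

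UGT2B15 itself was above 0 in every library. Summed over all 5 transcripts of the locus, the control held 174 to 273 FPKM and 1 µM held 47.5 to 176, with a log2 difference of -1.04 (two-sided exact permutation, p = 0.0238, n = 5 against 5). UGT2B15 made up most of this sum in every library of both groups, so its difference could hardly change when the other transcripts were counted in. This sum was added after the values were seen.

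**Figure D4:**
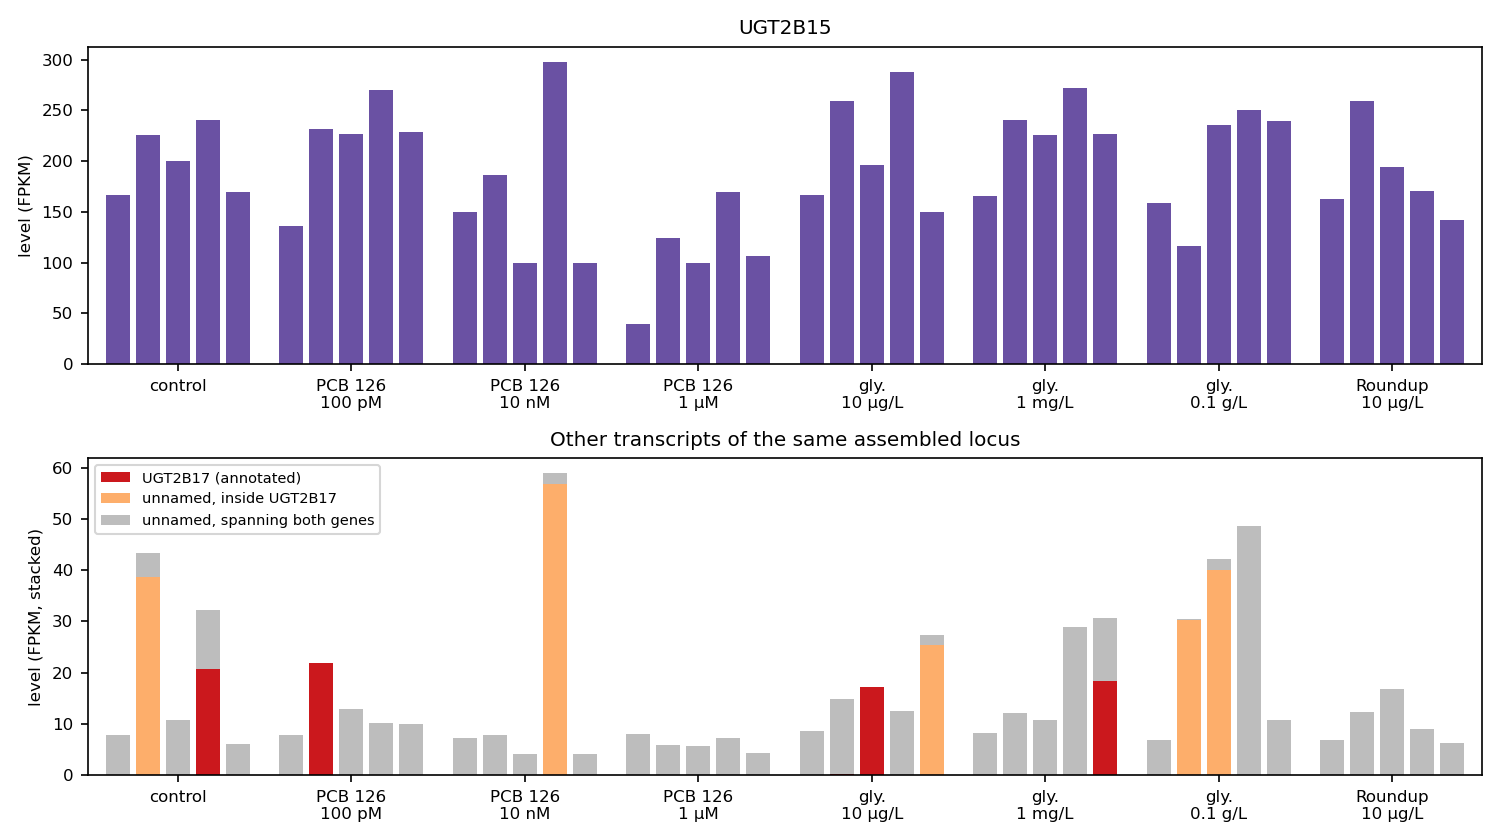
FPKM in each of 40 libraries (bars, replicates 1 to 5 from left to right in a group) of UGT2B15 (top) and of the other transcripts of the same assembled locus, stacked (bottom). The annotated UGT2B17 transcript appears in 4 libraries at 17.1 to 21.8 FPKM, the unnamed transcript inside it in 5 others, and the spanning transcripts are above 1 FPKM in all 31 of the rest and in some of these 9.

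UGT2B4 had the most variable make-up. Of the 7 transcripts under its name, ENST00000305107 with 6 exons (chr4:69480165-69495908) and ENST00000512583 with 5 exons (chr4:69480165-69495861) carried nearly all of its FPKM. The share of the second ranged from 0.263% to 76.7% between libraries with a median of 6.76%, and it was the higher of the 2 in 13 of 40. In the control libraries the first held 93.9, 40.4, 130, 48.9 and 103 FPKM and the second 53.9, 114, 12.3, 146 and 0.381. High values of one went with low values of the other, whereas the sum varied less. At 1 µM the first held 13.1, 136, 31.8, 188 and 51.9 FPKM and the second 38.2, 1.75, 86.7, 13.1 and 69.1. The share of the second spanned 0.368% to 75% in the control and 1.27% to 74.3% at 1 µM, so the ranges overlapped almost completely.

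Tested transcript by transcript at 1 µM, 1 of 8 named UGT2 transcripts passed (0.552% of 21181 transcripts did). It was the main UGT2B11 transcript, ENST00000446444, with a log2 difference of -1.95 ± 0.373 (limma, adjusted p = 0.0164). The main UGT2A3 transcript, ENST00000251566, differed by -1.27 ± 0.297 (limma, adjusted p = 0.058). It passed with 75th-percentile scaling, with quantile normalization and without the libraries over the alignment limit. Transcripts without a gene name also lie at UGT2A3, UGT2B7 and UGT2B10, and they are not in the gene sums. UGT2A3 has 1, at up to 4.42 FPKM. UGT2B10 and UGT2B7 belong to 1 assembled locus with 4 of them. The 2 at UGT2B10 were at up to 2.79 FPKM, the 1 at UGT2B7 at up to 9.29, and the 1 that spans both genes was above 0 in 2 of 40 libraries and reached 4.63 FPKM in a library at 1 µM.

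**Figure D5:**
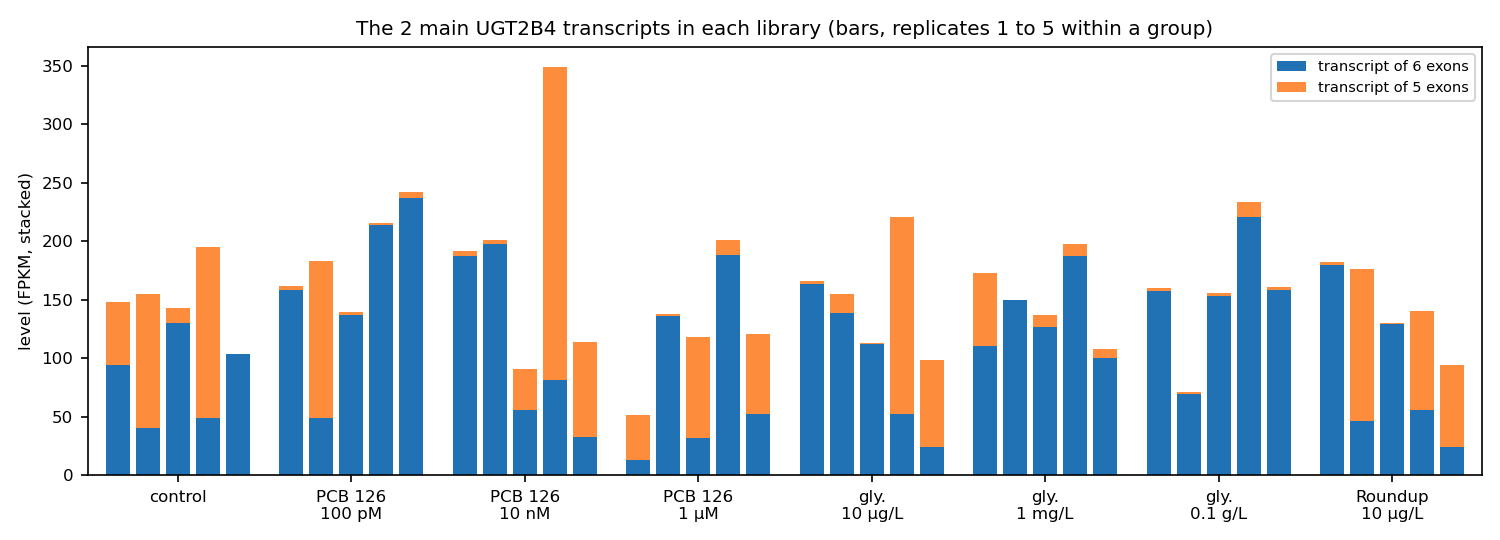
FPKM of the 2 main UGT2B4 transcripts, stacked, in each of 40 libraries (bars, replicates 1 to 5 from left to right in a group). The transcript of 5 exons is the taller part in 13 libraries spread over 6 of the groups, while none of the glyphosate 1 mg/L and 0.1 g/L libraries is among them.

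In the herbicide experiment the differences of the UGT2 genes from the control were within the spread between libraries. UGT2B15 was at 212 ± 59.6, 226 ± 38.9 and 200 ± 59.2 FPKM at the rising glyphosate doses and at 186 ± 45.2 under Roundup, against 200 ± 32.9 in the control (SD, n = 5). UGT2B4 was at 151 ± 48.2, 153 ± 33.9, 156 ± 57.6 and 145 ± 35.8 FPKM in the same groups, against 149 ± 32.6. UGT2A3 lay between 14.1 and 15.9 FPKM in the group means, against 14.5. UGT2B7 had means of 14.6, 15.1, 15.2 and 12.3 FPKM against 12.1, and the 5 values of each group overlapped with the control. UGT2B11 had means of 7.23, 7.65, 7.89 and 5.91 FPKM against 6.75, and UGT2B10 of 3.95, 4.46, 4.48 and 3.65 against 3.53.

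With limma, 0 of 7 members passed against the control at glyphosate 10 µg/L, 1 mg/L or 0.1 g/L or under Roundup, and 0% of the 9533 genes tested did. At an unadjusted p under 0.05 the count was also 0 of 7 in each of the 4 contrasts, against 0.997%, 1.31%, 0.881% and 1.73% of all genes in that order, and the ordinary linear model called 0 of 7. Over the 6 members other than UGT2B17 the log2 differences ran from -0.14 to 0.42, and their 95% bounds from -0.68 to 1.06. Roundup and glyphosate at the matched 10 µg/L differed by -0.22 to -0.03 (95% bounds -0.86 to 0.57), and 0 of 7 members passed there or in the F-test across the 5 groups (0% of all genes in both). Both experiments use the same 5 control libraries.

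Among the other glucuronosyltransferases, UGT1A1, the bilirubin-conjugating enzyme, rose at 1 µM from 66.1 ± 29.4 to 243 ± 101 FPKM, with a log2 difference of 1.88 ± 0.460 (limma, adjusted p = 0.0276). It was 1 of 6 tested UGT1A genes to pass, and none passed with a lower level. The log2 difference was below 0 for 3 of the 6. UGT1A3 went from 1.35 ± 0.672 to 3.29 ± 1.15 FPKM (limma, adjusted p = 0.102). UGT1A4 and UGT1A5 were at 4.45 and 1.78 FPKM in the control and at 6.82 and 0.635 at 1 µM. The UGT1A transcripts share their last exons, so the division of FPKM between them is uncertain. The median of the 6 UGT1A genes was 0.29, against -1.01 for the UGT2 genes. UGT8 was the only tested gene of 3 from other UGT families, at 4.40 ± 1.43 and 2.84 ± 0.905 FPKM (limma, adjusted p = 0.414).

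Of the 6 genes for the supply of UDP-glucuronic acid 0 passed at 1 µM, 1 of them at an unadjusted p under 0.05. UGDH, the dehydrogenase that makes the sugar donor, went from 173 ± 44.9 to 100.5 ± 39.5 FPKM (limma, adjusted p = 0.202). SLC35D1, which carries the donor into the endoplasmic reticulum, went from 10.4 to 7.49 FPKM, UGP2 from 33.5 to 27.4 and PGM1 from 37.2 to 32.0. Of the 5 genes for removal or efflux of glucuronides, ABCG2, an efflux pump, rose from 0.484 ± 0.362 to 4.45 ± 2.16 FPKM (log2 difference 1.81 ± 0.308, limma, adjusted p = 0.00131). None passed with a lower level, though 4 of the 5 had a log2 difference below 0. GUSB, the lysosomal glucuronidase, went from 28.1 ± 6.17 to 15.7 ± 5.14 FPKM (limma, adjusted p = 0.113). ABCC4 was at 5.43 and 3.31 FPKM and ABCC2 at 33.3 and 29.4.

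Of 13 transcription factors listed as regulators of UGT2 genes 9 were tested and 2 passed at 1 µM, both lower. FOXA1, a pioneer factor of liver genes, went from 7.70 ± 1.75 to 2.88 ± 1.17 FPKM (log2 difference -1.21 ± 0.286, limma, adjusted p = 0.0213). NR1H4, the bile acid receptor, went from 8.38 ± 3.75 to 2.99 ± 0.927 (log2 difference -1.19 ± 0.299, limma, adjusted p = 0.0348). CEBPA was at 14.7 ± 2.76 and 8.81 ± 2.70 FPKM and AHR at 64.1 ± 14.5 and 43.7 ± 20.5, and neither passed. The median of the 9 was -0.17, against -0.26 for all genes. None of these lists had a gene past the threshold at 100 pM or in a herbicide group.

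Across the 40 libraries the 6 members other than UGT2B17 rose and fell together. The 15 pairs had a median Pearson r of 0.80 for log2(FPKM + 1), from 0.54 for UGT2B4 with UGT2B11 to 0.93 for UGT2B11 with UGT2B15. With each group's mean taken out the median r was 0.72, from 0.62 to 0.95, so the likeness was also there between libraries of the same treatment. The points share library, depth and the state of the culture, and no p is given.

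Among the 9260 genes that varied in both experiments, those most similar to UGT2B15 included GSTA2 and ALB (r = 0.97 and 0.95). Nearest to UGT2A3 were ALB, PON1 and BAAT (r = 0.97 for each), and near to UGT2B11 were SERPINA4 and AHSG (0.96 and 0.95). UGT2B10 was most similar to TF, AHSG and CYP4A11 (0.91, 0.88 and 0.88), and UGT2B7 to SERPINC1, APOE and CCNA2 (0.86 for each). Most of these encode secreted plasma proteins or metabolic enzymes of hepatocytes. UGT2B4 was most similar to GBA3, OTC and HMGCS1 (0.97, 0.92 and 0.92). Its r with the other 5 members was 0.54 to 0.74 and, with group means taken out, 0.62 to 0.88.

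The labels number the libraries in 5 runs, each with 1 library of every group. The library of the fourth run was the highest of its group for UGT2B10 in 8 of 8 groups and for UGT2B15 and UGT2B7 in 7. It was the highest for UGT2B4 and UGT2B11 in 6 and for UGT2A3 in 4. Its mean deviation from the group mean was 0.65 on the log2 scale for UGT2B10 and 0.43 for UGT2B15. The library of the first run was the lowest for UGT2B10 in 5 groups. With the run as a term in the limma fit 4 of 7 members passed at 1 µM (3.66% of all genes did), UGT2B10 (adjusted p = 0.00625) and UGT2B15 (adjusted p = 0.0333) in addition to UGT2A3 and UGT2B11, and their differences were as above. What the runs stand for is not given in the sources used here.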

How the data were processed

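Total RNA of HepaRG cells was depleted of ribosomal RNA and sequenced as directional libraries of 75-bp pairs. The authors aligned with HISAT2 to GRCh38 and assembled and quantified with StringTie and Ensembl 89, and they deposited FPKM of 234960 transcripts (35782 without a gene name) in a PCB 126 table of 20 libraries and a herbicide table of 25, with 5 identical control columns. Replicates were not pooled. Some deposited columns hold values just below 0 and were therefore recorded as a score, although they hold FPKM like the others. The 4 such values (PCB 126) and 6 (herbicides) were set to 0.

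FPKM were summed per gene name, genes with a variance of FPKM above 1 were kept, and log2(FPKM + 1) was fitted in limma 3.58.1 (R 4.3.3) with all groups of a table and Benjamini-Hochberg adjustment over all genes tested (threshold 0.05). The fit was tested on simulated data. Single members were compared by two-sided exact permutation. The files hold no counts, and sums of FPKM, which are already normalised to depth, do not measure it. The paper gives a range of reads per sample, which was not used here. Shares of 75-base stretches used GENCODE 44 transcripts and promoter identity edlib 1.3.9.post1. Other steps used Python 3.11.15, pandas 2.3.3, numpy 2.4.6, scipy 1.17.1 and matplotlib 3.10.9.

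Groups came from the labels, which give no replicate numbers, and replicates were numbered in accession order. This order follows the library numbers, so the replicate number of a library is also the number of its run. The members, gene lists and tests were chosen with earlier results of these data known. All 7 members are named, and of each list at most the 4 genes with the smallest adjusted p at 1 µM. For likeness the 3 genes with the highest r are named for each member with a mean of at least 1 FPKM other than UGT2B17, and a few of these are not reported here. Alternatives tried were another pseudocount (0.1), a mean or no filter, 75th-percentile scaling, quantile normalization, least squares with library size as a term, subsets of libraries, the run of library numbers, fits of 2 groups or of all 40 libraries, the most abundant transcript, and leaving out each library. The 75th-percentile scaling without the libraries over the alignment limit and the locus sum were added after seeing the data.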

Additional observations from a re-analysis of the deposited data

Results flagged for a closer look

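In 52 sets of a member and a group, the highest or lowest of the 5 libraries was compared with the others on the log2 scale, and 7 had a gap of over 0.71 of the range. Chance would flag about 1 in 20 sets of normally distributed values. The UGT2B17 sets, with most values at 0, are not of that kind, so the 7 cannot be set against that rate. For UGT2B17, 4 libraries stood apart because the others were at or near 0: control replicate 4 (20.8 FPKM), 100 pM replicate 2 (21.8), glyphosate 10 µg/L replicate 3 (17.1) and glyphosate 1 mg/L replicate 5 (18.4). Glyphosate 1 mg/L replicate 1 was low for UGT2B10 (1.36 FPKM against 4.74 to 6.18 in the others) and for UGT2B11 (5.31 against 7.81 to 8.62). UGT2B15 in 100 pM replicate 1 was low, at 136 FPKM against 227 to 270.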

How the results depend on the processing

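The count of members that passed at 1 µM PCB 126 was 2 in 17 of 22 alternatives. It was 4 with the run of library numbers as a block, 3 without the libraries over the alignment limit and 3 in 1 fit over all 40 libraries. Leaving out each library gave 1 to 2 members, 1 without control replicate 2 or 4, when UGT2A3 missed the threshold. Over all genes that varied, libraries with the same run number did not deviate together beyond a median r of 0.05 (140 pairs, against -0.02 for the 560 other pairs). That median does not describe the UGT2 members. For those other than UGT2A3 and UGT2B17 the fourth run stood highest in most groups, and for UGT2A3 in 4 of 8. The main fit and the exact permutations left the runs out, so they ignore this likeness within runs. The F-test across the PCB 126 groups called 0 members without a filter (43478 genes tested in place of 9755) and 1 to 2 when each library was left out. Of the UGT2 transcripts 2 passed at 1 µM with 75th-percentile scaling, 2 with quantile normalization and 2 without the libraries over the limit. In the other 9 contrasts no alternative called a member. Some small differences changed sign. With 75th-percentile scaling and without the libraries over the limit, UGT2B4 at 1 µM came to 0.011, and at 10 nM UGT2B7 came to 0.14, UGT2B10 to 0.054 and UGT2B15 to 0.028. Without those libraries alone UGT2B7 came to 0.087 and UGT2B10 to 0.016 at 10 nM. With 1 library left out UGT2B4 at 10 nM ran from -0.049 to 0.43 and UGT2B7 from -0.57 to 0.18. The cause was not tested. At 1 µM the median of all genes, -0.26, became -0.12 with 75th-percentile scaling and -0.04 with quantile normalization, and UGT2A3 and UGT2B11 remained lower under both. FPKM without counts leave the precision of the low genes UGT2B10 and UGT2B11 unknown.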
